A study of Mus musculus with 7 samples.

Results

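The expression of 9 receptors for haematopoietic growth factors was compared between splenic B cell isolates of Eu-miR-155 transgenic (TG) and wild-type (WT) mice. They were the tyrosine kinase receptors Kit, Flt3 and Csf1r and the cytokine receptor chains Csf3r, Csf2ra, Csf2rb, Il3ra, Epor and Il7r. A probe set, a group of short probes read together, was a member when the platform annotation named 1 of these 9 genes and no other, which gave 15 of the 45037 probe sets on the array that were not controls. All 9 genes had at least 1 probe set, among 18193 genes that a probe set named alone.

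The study compared 4 WT mice of the FVB strain with 3 TG mice of that strain, and each of the 7 arrays held RNA from spleen B cells drawn with a magnetic kit. Eµ is an immunoglobulin heavy chain enhancer that is active in the B lineage, and in the TG mice it drives the microRNA miR-155, so other blood cells were not the transgene's intended site. The labels give no age, sex, founder line or disease state. The submitters count 4 and 3 mice, and each array is taken as 1 of them. Only the TG mice carry the added miR-155, and its mature form is shown because it is what separates the groups. In the RefSeq entry (GRCm38.p6, chr16:84714143-84714165, plus strand) the capitals mark the seed, bases 2 to 8, with which a microRNA pairs to its targets.
mmu-miR-155-5p: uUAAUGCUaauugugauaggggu

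Growth factor receptors let blood cells read the signals that keep them alive, dividing and maturing. Kit (for stem cell factor), Flt3 and Csf1r phosphorylate tyrosines themselves, whereas the cytokine receptor chains have no kinase of their own and work through JAK kinases and STAT factors. Kit and Flt3 mark stem and progenitor cells, Flt3 also early lymphoid and dendritic cells, Csf1r monocytes and macrophages, Csf3r neutrophils, Epor red cell precursors, and Il7r T cells and B cell precursors. Mature B cells of the spleen are not known for most of them.

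Transcription factors that are known to act on several of these genes include PU.1, GATA and RUNX proteins, so the promoter windows of RefSeq (GRCm38.p6, 250 bases before to 50 after a gene's start) were searched on both strands. The motifs were GAGGAA, known from sites of PU.1, then AGATAA, known from sites of erythroid factors such as Gata1, then TGTGGT, known from sites of the RUNX family. The table held a window for 7 of the 9 receptors, and the first window listed for a gene was taken. GAGGAA was found in 3 of the 7 windows, AGATAA in 1 and TGTGGT in 2, and these motifs occurred in 28.3%, 11.4% and 16.9% of the 27025 windows of all genes. The stretches below, 30 bases each and read 5′ to 3′ on the gene's strand, are shown because they hold the PU.1 motif of 3 receptors described next and the erythroid motif of Epor, with the match in capitals. A match is a run of letters and was not tested as a binding site.
Kit (chr5:75574752-75574781, plus strand): ggagagtgctagGAGGAAgaggatccaggg
Csf3r (chr4:126024561-126024590, plus strand): cctccttcctgaGAGGAAggggctgtctat
Csf2ra (chr19:61228419-61228448, minus strand): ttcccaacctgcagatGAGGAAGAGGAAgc
Epor (chr9:21963613-21963642, minus strand): ggtggctgtagcTTATCTgtccccagcctg
Counted from the transcript start of the window, the PU.1 motif stood in tandem in Csf2ra, at -14 and -8, in Csf3r at -86 and in Kit at -223. For Csf3r and Csf2ra that start lies inside the span RefSeq gives for the gene, so another annotated transcript begins further upstream. The Epor match is on the other strand, at -54.

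Expression is given as log2 values that the authors obtained with GCRMA. The table's lowest value is 2.17, and 4 or less is taken here as not above background. GCRMA can also give a probe set the same value on several arrays. A probe set was tested if 3 or more of the 7 arrays exceeded 4, which 7 of the 9 receptors met. The share of probe sets above 4 ran from 46.0% to 47.9% over the arrays. The mature B cell list, 9 measured genes such as Cd79b and Ighm, had a mean of 13.68 to 13.81 on the WT arrays and 13.16 to 13.57 on the TG arrays. Of the 9, only Ighm was higher in TG on average, at 15.39 against 15.18. Fcer2a was at 13.09 in WT and 12.27 in TG, and 1 gene, Fcer2a, passed the test below as lower, against 2.56% of all tested genes. Some arrays stood apart within their group. On TG replicate 3 the mean of 8 T cell genes was 8.89, against 3.60 and 3.78 on the other TG arrays and 3.26 to 3.36 in WT. The X-linked gene Xist was at 2.22 and 2.81 on WT replicates 3 and 4 and at 13.61 to 13.93 on the rest, a sex-linked split within WT that the TG arrays do not have.

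Kit, Flt3 and Csf2ra rose in the TG isolates and 0 receptors fell. By limma with Benjamini-Hochberg adjustment over all 20994 tested probe sets, 3 of the 7 tested receptors, or 42.9%, passed an adjusted p under 0.05 as higher. Among all 9517 tested genes, 8.11% passed as higher and 2.56% as lower. Counted by probe set, 3 of the 10 tested receptor probe sets passed as higher, against 5.63% of all tested probe sets. In 5 of the 7 tested receptors every TG array was above every WT array, which was so for 19.5% of all tested genes. All 7 had a positive difference, 6 of them with an unadjusted p under 0.05, and the median difference of all tested genes was 0.00. Without WT replicate 2, or without TG replicate 2, 1 receptor passed (Flt3), and without TG replicate 1, 5 passed. The receptors were chosen with earlier results of these data known, so these counts describe them and do not test them as a group.

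**Figure D1:**
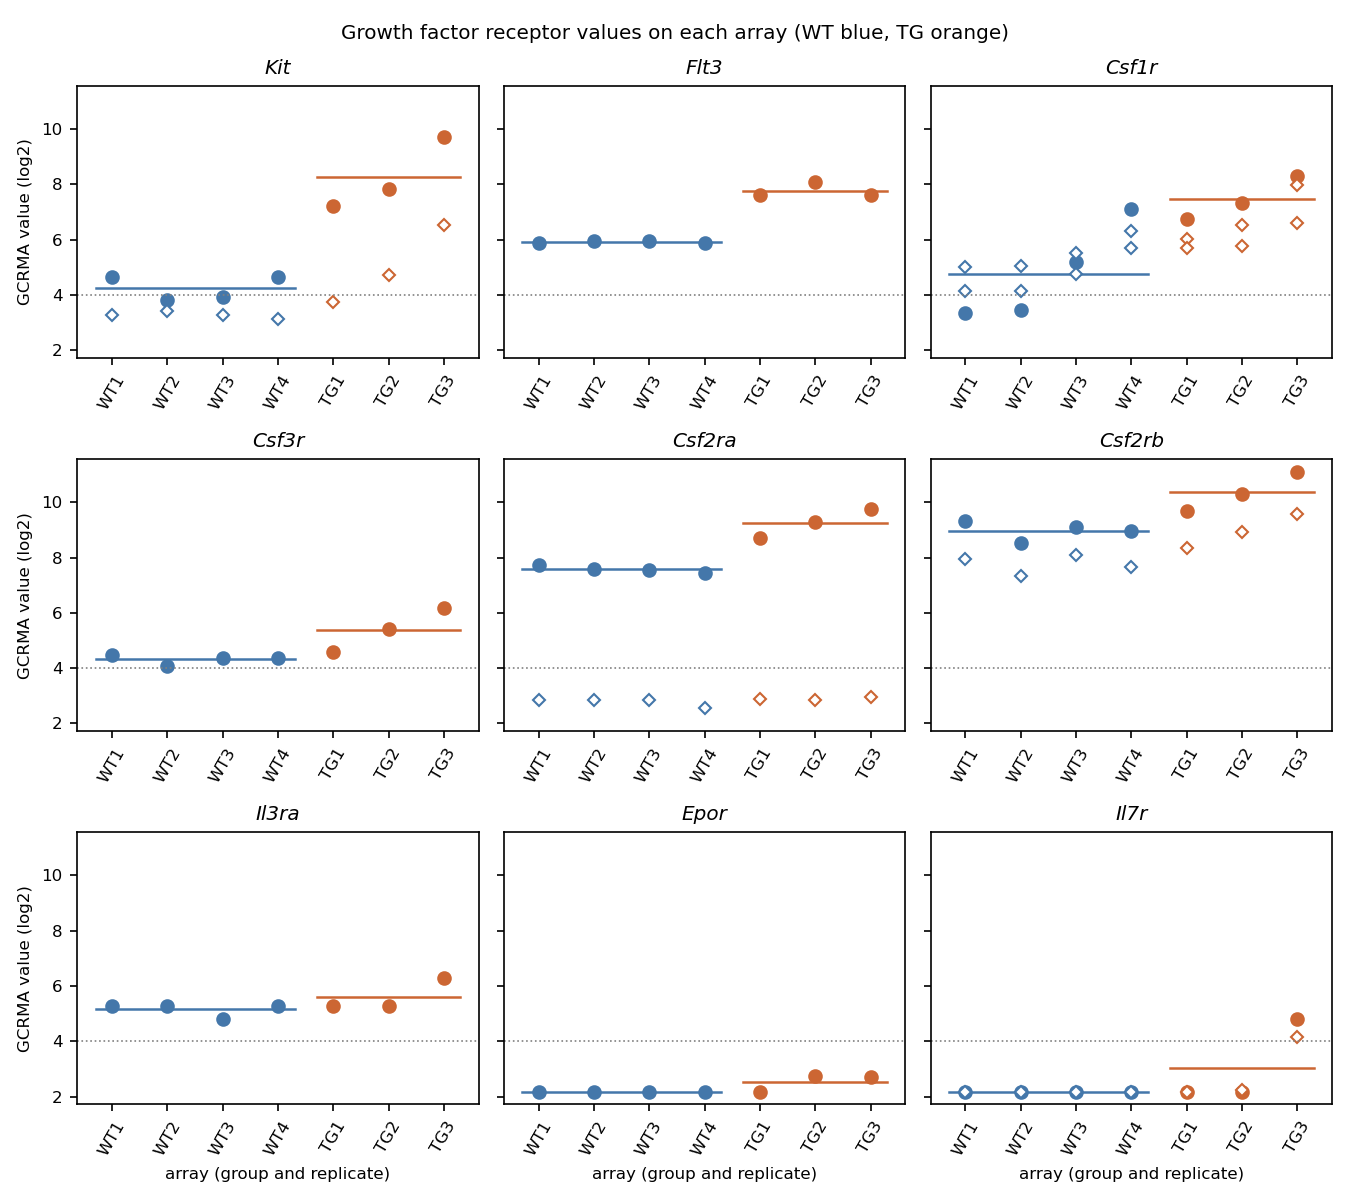
GCRMA values (log2, vertical axis) of the 9 receptors on each array (horizontal axis, WT blue and TG orange). Filled circles are the brightest probe set of a gene, open diamonds its other probe sets, horizontal bars the group means of the brightest probe set, and the dotted line marks 4. Kit, Flt3, Csf2ra, Csf2rb and Csf3r have every TG circle above every WT circle, Csf1r overlaps because WT replicate 4 is at 7.09, and Epor lies at or under 2.74 throughout.

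Kit, the receptor for stem cell factor on progenitors and mast cells, had the largest difference of the 9. It was at 4.66, 3.83, 3.91 and 4.66 on WT replicates 1 to 4, and at 7.23, 7.83 and 9.71 on TG replicates 1 to 3. The WT arrays lay near the limit of detection, with 2 of the 4 above 4, and WT replicates 1 and 4 share a value. The lowest TG value stood 2.57 above the highest WT value. The difference was 3.99 ± 0.59 (SE, n = 4 and 3, limma adjusted p = 0.0186), or 15.9-fold, and 3.93 with values under 4 set at 4. Of all tested genes, 0.441% had a larger increase. A dimmer probe set of Kit was not above background on any WT array (3.14 to 3.43) and read 3.73, 4.73 and 6.53 on the TG arrays, which did not overlap; it did not pass the filter and was not tested. The call was lost without WT replicate 2 (adjusted p = 0.0651), WT replicate 3 (0.0545) or TG replicate 2 (0.0739), with differences of 3.85, 3.87 and 4.20. It was also lost without the filter on dim probe sets (0.0733), with Xist as a covariate (0.0765) and without WT replicates 3 and 4 (0.140). In bulk RNA, more cells of a type and more RNA per cell cannot be told apart.

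Kit marks several kinds of cell, and their marker lists differed in level. The mean of 8 blood progenitor genes was 3.98 to 4.30 in WT and 4.90 to 6.09 in TG. Of the 3 genes tested 1 passed as higher, against 8.11% of all tested genes. That gene was Cd34, a progenitor surface protein chosen here after its values were seen. It was at 2.17 on all 4 WT arrays and at 4.59, 5.44 and 7.44 on TG replicates 1 to 3, and so met the filter through the TG arrays alone. Lmo2, the brightest of the 8, was at 12.78 on average in WT and 12.68 in TG and did not pass (limma adjusted p = 0.357). Hoxa9 was at 2.17 on every array and Mecom reached 2.32 at most. The 6 measured mast cell and basophil genes were not above background on any array, with a list mean of 2.17 to 2.34 on the TG arrays, and Cpa3, a mast cell protease, reached 2.21. The 7 erythroid genes, whose precursors also carry Kit, had a mean of 2.28 to 2.34 in WT and 3.84 to 6.22 in TG. The part of progenitor and erythroid cells in the Kit difference was not tested.

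Flt3, a receptor of multipotent and lymphoid progenitors and of dendritic cell precursors, had the smallest SE of the 7 tested receptors. It read 5.89, 5.95, 5.95 and 5.86 on the WT arrays and 7.60, 8.09 and 7.61 on the TG arrays. WT replicates 2 and 3 share a value, as GCRMA can produce, and the WT SD of 0.04 takes in that tie. The groups were 1.65 apart at their nearest. The difference was 1.86 ± 0.13 (SE, limma adjusted p = 0.00271), or 3.63-fold, with a 95% interval from 1.55 to 2.17. Unlike Kit, Flt3 was not highest on TG replicate 3; TG replicate 2 had the highest value. It passed without any single array (adjusted p from 0.00184 to 0.0230), and was the 1 receptor that did. Flt3 also passed with the Xist level as a covariate (1.85, adjusted p = 0.0276), and without both TG replicate 3 and WT replicate 4 (1.92, adjusted p = 0.0221). It did not pass without both WT replicates 3 and 4 (1.85, adjusted p = 0.0983), where 2 WT arrays remained.

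Of 5 tested dendritic cell genes, 2 passed as higher, against 8.11% of all tested genes. The other 3 did not (Batf3, Itgae and Zbtb46, limma adjusted p of 0.0548, 0.0605 and 0.0992). Of the 2, Xcr1 was at 2.47 to 3.12 in WT and met the filter through the TG arrays alone. The mean of the 8 measured dendritic cell genes was 3.63 to 3.98 in WT and 4.83, 5.50 and 7.03 on TG replicates 1 to 3. Itgax, the integrin chain CD11c, rose from 5.97 to 9.29 on average (limma adjusted p = 0.0244). Unlike Flt3, the list mean was highest on TG replicate 3, where Ccr9 and Siglech read 10.44 and 4.60 against 2.69 or less on the other arrays. The 8 precursor B cell genes had means of 4.83 to 5.08 in WT and 5.15, 5.24 and 6.33 in TG. Of the 3 tested, Cd93 passed as higher. Vpreb3 and Ebf1 differed by -0.47 and -0.38 and did not pass (limma adjusted p = 0.517 and 0.162). Dntt was at 10.64 on TG replicate 3 and at 2.17 on every other array. Vpreb1, Igll1 and Rag2 were not above background on any array. The part of either cell type in the Flt3 difference was not tested.

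Csf1r, the receptor for macrophage colony-stimulating factor, differed as much within the WT group as between the groups. On WT replicates 1 to 4 it stood at 3.33, 3.44, 5.19 and 7.09, and on TG replicates 1 to 3 at 6.76, 7.32 and 8.31. WT replicate 4 was thus above TG replicate 1, and WT replicates 1 and 2 were not above background. The difference was 2.70 ± 0.96 (SE, limma adjusted p = 0.123), with a 95% interval from 0.40 to 5.0, so Csf1r did not pass. A second probe set had the same order of arrays in WT, 4.14 on both WT replicates 1 and 2, then 4.74 and 6.30, against 6.03, 6.52 and 7.97 in TG (adjusted p = 0.109). The third differed by 0.70 ± 0.27 (adjusted p = 0.148), with 0.01 between the groups at their nearest. Csf1r did not pass under any of its 19 alternatives, in which the difference ran from 1.80 to 4.08.

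The WT arrays with more Csf1r were those with little Xist, and Lyz2 was higher on them too. Lyz2, the lysozyme of macrophages and neutrophils, read 6.17, 8.16, 10.00 and 11.45 on WT replicates 1 to 4 and 10.85 to 11.59 in TG. Cd68, a lysosomal protein of macrophages, did not follow that order in WT, at 5.75, 5.32, 5.52 and 6.58, and rose to 7.60, 8.32 and 9.35 in TG (limma adjusted p = 0.0259). The mean of the 11 measured monocyte and macrophage genes was 3.34, 3.50, 3.70 and 4.14 on the WT arrays and 4.21, 4.54 and 5.44 on the TG arrays. Of the 11 genes, 5 were not above background on any array, among them Cd14 and Marco. Without both WT replicates 3 and 4 the Csf1r difference was 4.08 (adjusted p = 0.109), and with Xist as a covariate 4.07 (0.0665). The part of monocytes in the Csf1r difference was not tested.

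Csf3r, the granulocyte colony-stimulating factor receptor of the neutrophil lineage, did not pass. It was at 4.49, 4.08, 4.38 and 4.38 in WT, where replicates 3 and 4 share a value, and at 4.57, 5.40 and 6.16 in TG. The groups did not overlap, but TG replicate 1 was 0.09 above the highest WT array. The difference was 1.05 ± 0.35 (SE, limma adjusted p = 0.108; 95% interval 0.21 to 1.88). It passed without TG replicate 1 (1.45, adjusted p = 0.0274), and the difference was 0.65 without TG replicate 3 (0.170). On TG replicate 1 the mean of 12 granulocyte genes was 8.01, against 7.08 and 7.85 on TG replicates 2 and 3 and 2.64 to 3.33 in WT. Mpo, the myeloperoxidase of early granulocytes, was at 12.84, 13.25 and 13.93 in TG and at 2.88, 2.85, 3.23 and 6.95 in WT. The high mean on TG replicate 1 came with Ltf, Camp and Ngp, proteins of later granules, at 5.15, 6.67 and 7.68 there and at 2.41, 2.91 and 2.34 on TG replicate 2. On TG replicate 3 these genes were at 2.30, 3.08 and 5.80, so Ngp was above background there too. Mpo, Elane, Prtn3, Ctsg and Ms4a3 were instead lowest of the TG arrays on replicate 1 and highest on replicate 3, the order of Csf3r. S100a8 and S100a9 did not have that order. They were highest on TG replicate 1, at 9.95 and 8.94, and lowest on TG replicate 2, at 9.29 and 6.88. Kit, Csf1r, Csf2ra, Csf2rb and the mean of the cell cycle genes also had the order of Csf3r, so it was not particular to granulocyte genes. The part of granulocytes in the Csf3r difference was not tested.

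The receptor for GM-CSF joins an alpha chain, Csf2ra, to the beta chain Csf2rb, which the IL-3 and IL-5 receptors share. Csf2ra rose. Its WT values were 7.74, 7.60, 7.56 and 7.45, and its TG values 8.71, 9.29 and 9.74. They were 0.96 apart at their nearest, and the difference was 1.66 ± 0.23 (SE, limma adjusted p = 0.0164), or 3.15-fold. Its call was lost without WT replicate 2 (1.66, adjusted p = 0.0606) or TG replicate 2 (1.63, 0.0756), without the filter (1.66, 0.0667), with Xist as a covariate (1.57, 0.0726), and without both WT replicates 3 and 4 (1.57, 0.140). A second Csf2ra probe set was not above background on any array, between 2.57 and 2.96.

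Csf2rb lay just outside the threshold. It read 9.32, 8.51, 9.10 and 8.95 in WT and 9.70, 10.29 and 11.11 in TG. Every TG array was above every WT array, by 0.38 at the nearest. The difference was 1.40 ± 0.35 (SE, limma adjusted p = 0.0544), and the other probe set gave 1.18 ± 0.32 (adjusted p = 0.0645). It passed in 6 of 19 alternatives, among them without TG replicate 1 (1.73, adjusted p = 0.0331), after quantile normalization (0.0358) and as the mean of its probe sets (1.29, 0.0480). Both Csf2rb and its neighbour gene Csf2rb2, an IL-3 receptor beta chain particular to mice, are close copies, so their probe sets may share signal. Csf2rb2 was not above background on any WT array (2.70 to 2.90) and was at 4.11, 5.26 and 6.76 in TG, at least 2.60-fold higher by the TG mean against a level of 4. It was tested only because its TG arrays exceeded 4, and passed (limma adjusted p = 0.0422). A probe set that names both genes, and so is no member, ran from 3.66 to 3.84 in WT and from 3.84 to 4.13 in TG.

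Il3ra, the alpha chain that binds IL-3 on basophils, plasmacytoid dendritic cells and progenitors, did not pass. It had the same value of 5.28 on WT replicates 1, 2 and 4 and on TG replicate 2, with 4.82 on WT replicate 3, 5.29 on TG replicate 1 and 6.28 on TG replicate 3. TG replicate 3 was the 1 array clearly above the shared value. The difference was 0.45 ± 0.27 (SE, limma adjusted p = 0.302; 95% interval -0.20 to 1.10), and 0.12 without TG replicate 3.

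Epor and Il7r were not above background in WT and were not tested. Epor, the erythropoietin receptor of red cell precursors, was at 2.17 on all 4 WT arrays and TG replicate 1, and at 2.74 and 2.70 on TG replicates 2 and 3. On those 2 arrays the mean of the 7 erythroid genes was 6.06 and 6.22, and Car1, the carbonic anhydrase of red cells, was at 9.19 and 10.02. Hba-a1 (haemoglobin) and Alas2 (haem synthesis) were not above background on any array, Hba-a1 at 2.17 throughout and Alas2 at 3.57 at most. Probe sets that name several genes were not used, and the haemoglobin gene Hbb-b1 was not measured by a probe set of its own. The Hba-a1 value therefore does not show that haemoglobin RNA was absent. Il7r, the IL-7 receptor alpha chain, was at 2.17 on all arrays but TG replicate 3, where it read 4.81; its second probe set read 4.14 there and 2.25 or less elsewhere. The T cell genes were highest on that array, with Thy1 at 10.78 and Cd3d at 10.70 against 2.25 or less on the other 6, both chosen after their values were seen. This was not particular to T cell genes. The precursor B cell list also had its highest mean there, at 6.33, with Dntt at 10.64. Vpreb3 and Ebf1 of that list were instead lowest there, at 7.83 and 11.18. A count of 1 array permits no statement on genotype, and the part of T cells or B cell precursors in the Il7r value was not tested.

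**Figure D2:**
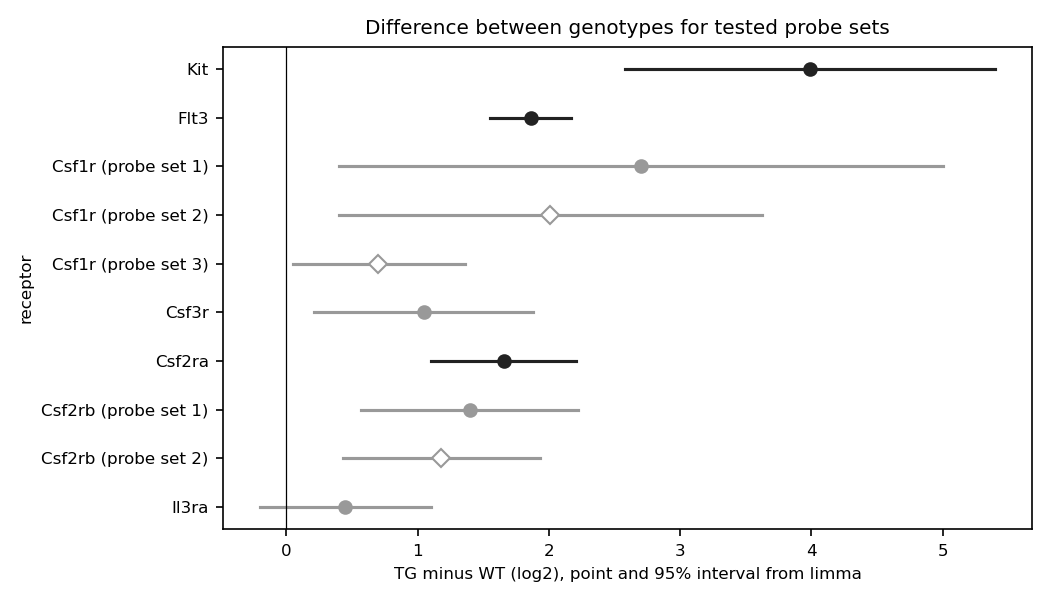
TG minus WT difference (log2, horizontal axis) of the 10 tested receptor probe sets, with the 95% interval from limma. Black marks the receptors with an adjusted p under 0.05 (Kit, Flt3, Csf2ra), grey the others; circles are the brightest probe set of a gene and diamonds the others. The Flt3 interval, 1.55 to 2.17, is the narrowest, and the interval of Il3ra alone spans 0.

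The TG arrays differed among themselves. TG replicate 3 had the highest value of all 7 arrays for 7 of the 9 receptors; Flt3 and Epor were highest on TG replicate 2. Among the 7 tested receptors TG replicate 1 was the lowest TG array for 6, the exception being Il3ra. Without TG replicate 3 the differences of Kit, Csf2ra and Flt3 were 3.27, 1.41 and 1.94, with limma adjusted p of 0.00956, 0.0154 and 0.00407. The 3 calls thus did not rest on that array. The SD over the TG arrays was 1.29 for Kit and 0.28 for Flt3.

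**Figure D3:**
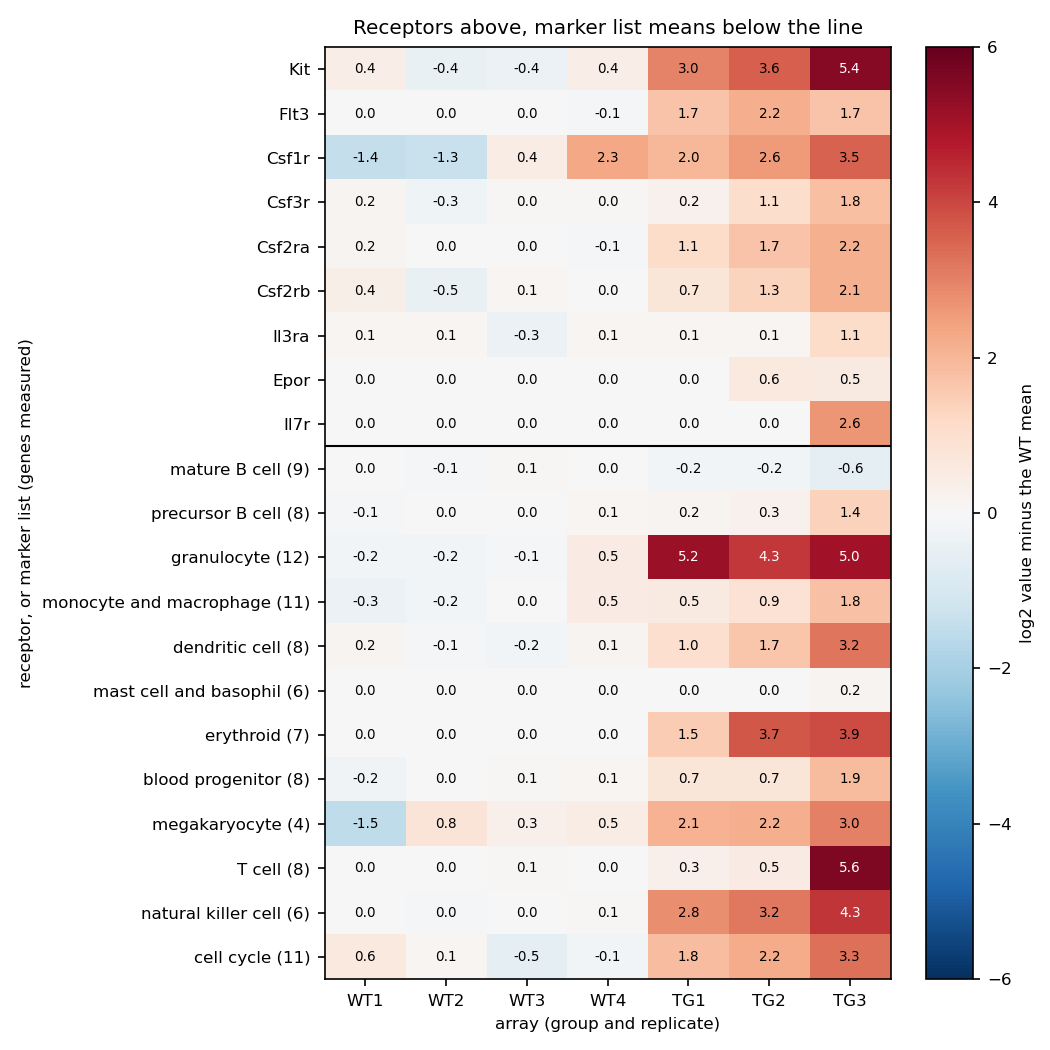
Log2 value minus the WT mean on each array (columns) for the 9 receptors (above the line) and for the means of 12 marker lists (below it, with the number of genes measured). Red is above and blue below the WT mean. The T cell list and Il7r stand out on TG replicate 3, and Csf1r is already raised on WT replicate 4. The granulocyte, erythroid, natural killer cell and cell cycle lists are raised on all TG arrays. The megakaryocyte, dendritic cell, blood progenitor, monocyte and macrophage, precursor B cell and T cell lists also have every TG array above every WT array.

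The genes whose profile over the 7 arrays lay nearest to each receptor were found after centring every tested gene on its own mean. The measure is the root mean square difference in log2 units, and it takes in the genotype difference. A gene near a receptor thus has a similar difference by choice, so the calls of these genes are no separate result. Nearest to Kit were the mitotic kinase gene Bub1 (0.21), the chemokine gene Cxcl9 (0.32) and Shtn1 (0.35). Nearest to Flt3 were the kinase gene Nek6 (0.12), the lipid phosphatase gene Plpp1 (0.13) and Rab7b (0.16), a small GTPase gene. All 6 of these genes passed the limma test as higher. Shtn1, Nek6 and Plpp1 had no WT array above 4 and so met the filter through the TG arrays alone. For Csf1r they were the chemokine gene Ccl6 (0.48), Clec7a (0.56), which encodes the beta-glucan receptor of myeloid cells, and the lysozyme gene Lyz1 (0.59), none of which passed and all of which were higher on WT replicates 3 and 4 than on 1 and 2.

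The nearest genes of the cytokine receptor chains were others. For Csf2ra they were Cks2 (0.11), a partner of cyclin-dependent kinases, Creg1 (0.12) and Lyplal1 (0.13), all of which passed as higher. For Csf2rb they were Pole2 (0.16), a DNA polymerase subunit, the checkpoint kinase gene Wee1 (0.18) and the mitotic kinesin gene Kif23 (0.18), of which Kif23 passed. Wee1 (0.11), C1qtnf12 (0.13) and Haus8 (0.13) were nearest to Csf3r, and Dnmt3a (0.06), a DNA methyltransferase gene, Acp2 (0.08) and Eif2ak2 (0.09) to Il3ra; none of these 6 passed. Between receptors, Csf3r and Csf2rb were the closest, at 0.22. The 11 measured cell cycle genes had means of 6.39 to 7.50 in WT and 8.76 to 10.21 in TG, and their part in these likenesses was not tested.

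Most ligand genes were not above background in the isolates. Of 8 measured ligand genes, 7 were not above background on any array: Kitl (stem cell factor), Il34, Csf3, Csf2, Il3, Il7 and Tslp, each at 2.30 or less. Csf1, the macrophage factor that binds Csf1r, was at 5.16 to 6.61 in WT and 5.88, 4.92 and 7.95 in TG; the groups overlapped and it did not pass (0.48 ± 0.73 SE, limma adjusted p = 0.678). Of the partner chains, Il5ra, which joins Csf2rb to bind IL-5, did not pass (0.55 ± 0.28, adjusted p = 0.242). Crlf2, which joins Il7r to bind TSLP, read 11.66 to 11.85 on all 7 arrays and did not pass (-0.03 ± 0.06, adjusted p = 0.762). Crlf2 was thus well above background on the arrays where Il7r was at the lowest value.

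Over the 8 lists of genes that feed, carry or curb the receptors' signals, 63 of 87 measured genes were tested. Of these, 7 (11.1%) passed as higher and 3 (4.76%) as lower, against 8.11% and 2.56% of all tested genes, with a median difference of 0.13. Csf2rb2, Klf1, Cebpa and Tal1 among the 7 passed the filter through the TG arrays alone. The 10 calls became 5, 2, 4 and 2 without WT replicates 1, 2, 3 and 4, and 0 without TG replicate 2, where 24 of the 63 had an unadjusted p under 0.05. Of 7 JAK and STAT genes and 11 adaptors and kinases, 0 passed by limma, with 1 and 3 at an unadjusted p under 0.05; the nearest were Ptpn11, the phosphatase SHP-2, at 0.47 (adjusted p = 0.0511) and Jak1, the kinase that pairs with Il7r, at -0.35 (adjusted p = 0.0763). Among 11 other cytokine and growth factor receptors, Il4ra and Il21r, which B cells use to read T cell help, fell by 0.64 (adjusted p = 0.00958) and 0.47 (0.0233), and 0 rose (1 at an unadjusted p under 0.05). Il4ra was at 11.05 to 11.26 in WT and 10.38 to 10.57 in TG, so this B cell receptor went the other way from Kit, Flt3 and Csf2ra.

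Of 13 negative regulators, the phosphatase gene Ptprc (CD45) fell by 0.15 (limma adjusted p = 0.0471) and 12 did not pass. For this list and the next, the shares over all tested genes were 2.56% lower and 8.11% higher. Socs2 and Socs3, feedback inhibitors that cytokine receptors induce, differed by 1.52 and 1.08 (adjusted p = 0.173 for each), with Socs2 at 4.33 to 4.41 in WT and 4.86, 5.17 and 7.67 in TG. Among 9 STAT5 targets, the survival gene Bcl2l1 and Myc rose by 0.64 (adjusted p = 0.0188) and 0.90 (0.0221), and 7 did not pass; Cish, a target often used as a readout of STAT5, was at 4.03 or less on every array.

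Of 9 tested transcription factors known to control receptor genes, 4 passed as higher and 0 as lower, against 8.11% and 2.56% of all tested genes. The 4 were Myb (3.75), a progenitor factor, Klf1, the erythroid factor, Cebpa, a factor of granulocytes and monocytes, and Tal1, a stem and erythroid factor. The median difference of the 9 was 2.76, or 2.01 with values under 4 set at 4. It rests in part on 4 genes that met the filter through the TG arrays alone. One of them, Gfi1, had the median difference of 2.76 itself. It was at 3.28 to 3.85 in WT and did not pass (limma adjusted p = 0.0642). Klf1, Cebpa and Tal1 were not above background on any WT array, so they passed the filter through the TG arrays alone and their folds are bounds, at least 5.14, 4.03 and 5.93 against a level of 4. Spi1, which encodes PU.1, was at 10.45 to 11.00 in WT and 10.32 to 10.74 in TG and did not pass (-0.14, limma adjusted p = 0.551). Runx1 (-0.27, adjusted p = 0.281) did not pass either. The gene of the factor whose motif is printed above for Kit, Csf3r and Csf2ra was therefore at overlapping levels in both groups.

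**Figure D4:**
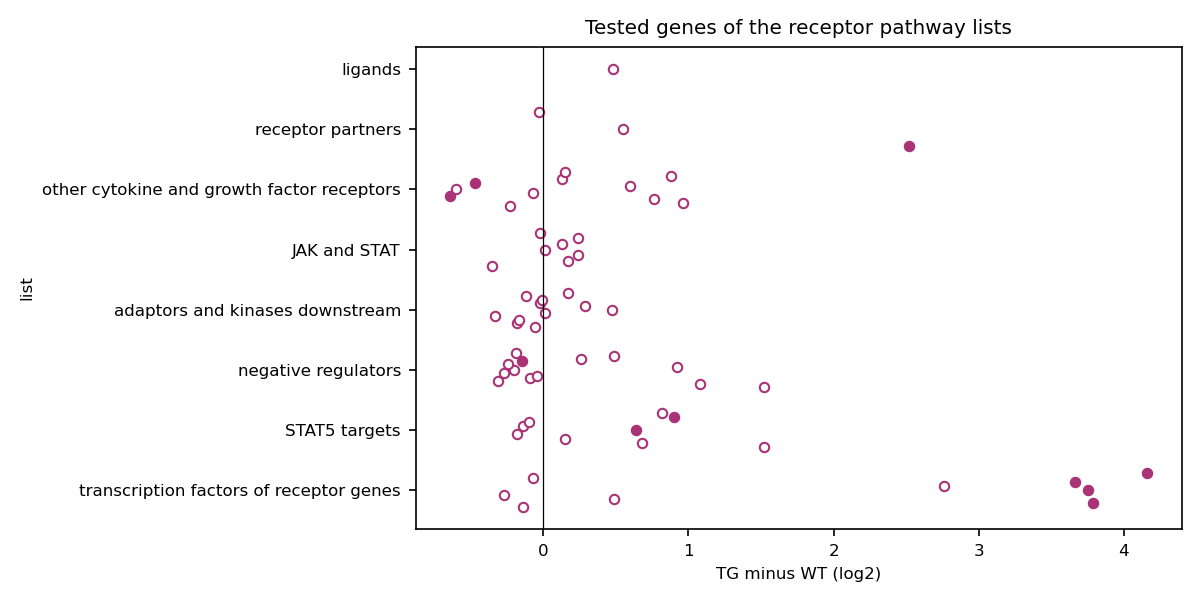
TG minus WT difference (log2, horizontal axis) of each tested gene of the 8 pathway lists (rows); filled points have a limma adjusted p under 0.05. Klf1, Cebpa, Tal1 and Csf2rb2 are drawn at fitted differences from WT values that were not above background, and read 2.36, 2.01, 2.57 and 1.38 with values under 4 set at 4; Myb lies at 3.75, and no JAK, STAT or adaptor gene is filled.

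How firmly each receptor can be placed depended on the arrays used, as the plot of alternative settings shows. Under the 19 alternatives Flt3 passed in 17, Csf2ra in 13, Kit in 12, Csf2rb in 6, and Csf1r in 0; Csf3r passed in 2 of its 18 and Il3ra in 0 of 18. No receptor changed sign in any alternative that could be fitted.

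**Figure D5:**
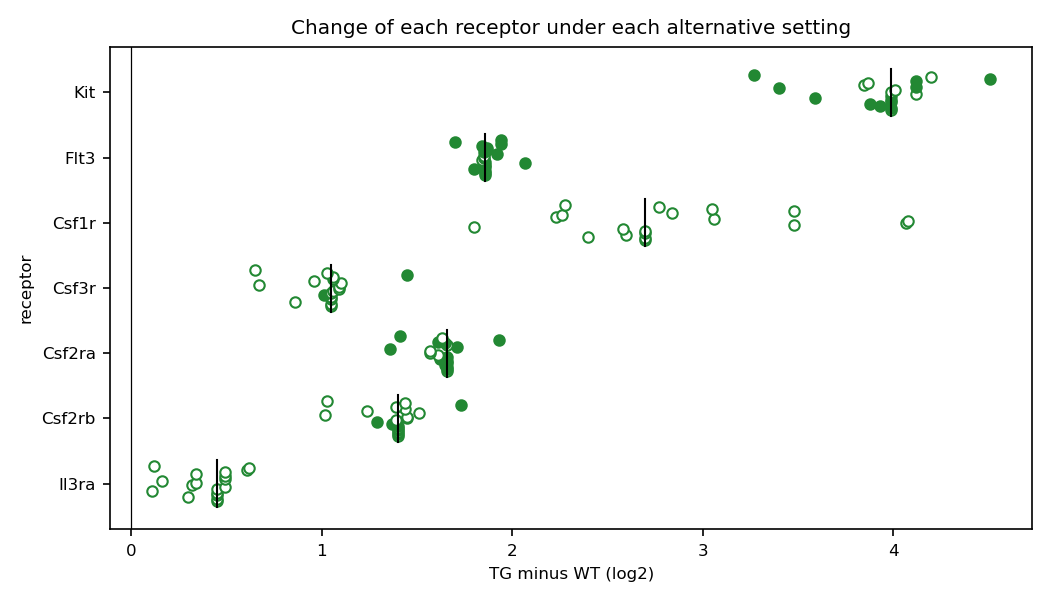
TG minus WT difference (log2, horizontal axis) of the 7 tested receptors under each alternative setting (points, spread vertically for legibility) and as reported (black bars). Filled points have a limma adjusted p under 0.05. All points lie above 0; those of Flt3 run from 1.70 to 2.07 and those of Csf1r from 1.80 to 4.08.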

How the data were processed

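Biotin-labelled cRNA from 7 samples was hybridised to 1 array each. The deposited log2 values were made by the authors with GCRMA, a method that models background from probe sequence and summarises the probes of a set (named in the submitters' processing notes, version not given in the sources used here). It can give a dim probe set the same value on several arrays. Scanner files and scan batches were not analysed here. Of 45101 probe sets, 64 controls were set aside. Genes are named from the platform annotation through Entrez identifiers in a RefSeq table (GRCm38.p6; 34754 of 34945 single-gene probe sets matched). Where a gene had several tested probe sets, the one with the highest overall mean stood for it. The comparison of groups used R 4.3.3 and limma 3.58.1 (lmFit, eBayes with an intensity trend, prior degrees of freedom 1.68, Benjamini-Hochberg over all tested probe sets); the procedure was tested on simulated data. The number of arrays limits the precision. The members and lists were chosen with earlier results of these data known.

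The text names all 9 receptors, every measured ligand and partner, up to 4 passing genes with the smallest p of each other pathway list, the 3 nearest profiles of each tested receptor, and up to 2 marker genes of highest TG mean; genes outside this rule were added to illustrate a list after its values were seen. Alternatives changed the filter, floor, normalization, variance model, array weights, probe set choice, covariate and arrays. Of 99 pathway genes, 87 were measured by a probe set of their own; the rest were not analysed here.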

Additional observations from a re-analysis of the deposited data

Results flagged for a closer look

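Of the receptor probe sets whose WT values varied, 2 had 1 WT array standing apart from 3 that agreed, with a gap of 1.00 of the group's range in each, above Dixon's critical value for 4 samples at 95%. For Il3ra it was WT replicate 3, at 4.82 against 5.28 on the other WT arrays. For the second Csf2ra probe set it was WT replicate 4, at 2.57 against 2.86, with all values under background. In both cases the 3 agreeing arrays hold 1 shared value, so the gap is 1.00 of the range whatever other value the remaining array has. Dixon's rate of about 1 in 20 by chance is for values without such ties, and so does not hold for these 2. In all, 12 groups were examined.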

How the results depend on the processing

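With 4 and 3 arrays, calls depended on which arrays were used. Leaving out 1 array at a time gave 138 to 2149 probe sets (1949 as reported), 1 to 5 receptors (3) and 0 to 13 pathway genes (10); the 0 arose without TG replicate 2. Without the filter on dim probe sets 199 probe sets, 1 receptor (Flt3) and 1 pathway gene passed. With array weights the counts were 5945, 5 and 20, and with the Xist covariate 277, 1 and 2. Without WT replicates 3 and 4 they were 15, 0 and 0, with 5 of 7 receptors and 23 of 63 pathway genes at an unadjusted limma p under 0.05. Without TG replicate 3 and WT replicate 4 they were 687, 3 and 5, and with values under 4 set at 4, 6 pathway genes passed. The stricter filter left Csf3r and Il3ra untested. No receptor difference changed sign. The other settings kept each count within 1.5 times; the causes of the changes were not tested.

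Replicate numbers did not pair the samples: deviations of same-numbered arrays correlated at -0.043, -0.142 and -0.287. A fit that blocks on that number, without the unmatched WT replicate 4, called (limma) 4 probe sets, 0 receptors and 0 pathway genes, with 5 of 7 and 23 of 63 at an unadjusted p under 0.05.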

Other observations

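Some receptors outside the 9 were, like Il7r, above background on TG replicate 3 alone. They were picked after their values were seen. Igf1r, the receptor of insulin-like growth factor 1, was at 3.08 on 6 arrays and 5.65 on TG replicate 3. Il2rb, a chain of the IL-2 and IL-15 receptors, was at 2.17 to 2.45 in WT, at 3.87 and 3.85 on TG replicates 1 and 2 and at 6.46 on TG replicate 3. Il13ra1 read 2.17, 2.77 and 4.59 on TG replicates 1 to 3 and 2.17 in WT. None of these 3 passed the filter and none was tested. The inhibitor gene Socs1 had the same pattern, at 2.17 on 6 arrays and 7.44 on TG replicate 3.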
